A study of Homo sapiens with 8 samples.

Results

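The response of HDAC6-depleted cells to IL-1 was measured by setting the 2 siHDAC6 + IL-1 arrays against the 2 siHDAC6 arrays without IL-1, 4 of the 8 Illumina whole-genome arrays of the series, across 11182 genes. The cells were SW1353, an established human chondrosarcoma line used as a model of chondrocytes, grown in DMEM. The siHDAC6 cells had received a QIAGEN siRNA against HDAC6 and the siCon cells a non-targeting AllStars siRNA, in both cases 24 h before stimulation. The study's methods instead describe 24 h of transfection and then a night in serum-free medium before stimulation. The sample labels give 6 h of IL-1alpha for the stimulated groups, whereas a figure legend of the study gives a longer time. The siHDAC6 and siCon groups without IL-1 carried the same siRNA as their stimulated counterparts and differed from them by IL-1 alone, so transfection is common to all 8 arrays. The study describes its treatment as done in duplicate without saying whether the cultures were separate, so each p-value measures only the spread between these samples. In RNA from whole cultures, fewer cells that express a gene and less of its RNA per cell cannot be told apart.

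IL-1 is a cytokine of joint inflammation. It binds the receptor IL1R1, which through the adaptor MYD88 and kinases of the IRAK family frees NF-κB from its inhibitor IκBα and activates MAP kinases and AP-1. In chondrocytes these factors are known to switch on matrix metalloproteinases, chemokines and cytokines, and HDAC6, a mainly cytoplasmic deacetylase that acts on tubulin among other proteins, was depleted to ask how far this programme needs it.

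HDAC6, the target of the siRNA, read 5.14 and 4.87 (normalised log2 signal) in siHDAC6 replicates 1 and 2 and 4.84 and 4.87 in siHDAC6 + IL-1 replicates 1 and 2. All 4 values lay below the 4 siCon and siCon + IL-1 values, which ran from 6.32 to 6.63, and close to the detection limit of 4.95 to 5.01 on these 4 arrays. The fitted log2 change of this signal with IL-1 was -0.15 (standard error 0.12, adjusted p = 0.51). The median probe signal of the 4 arrays was 62.7 to 64.7, they detected 15557 to 16125 of 48803 probes, and replicates of a group correlated at 0.988 to 0.992. Of 22 cartilage matrix and transcription factor genes on the array 10 reached the detection filter, among them SOX9, HAPLN1, COL11A1 and, on 1 array of each of the 2 groups, COL2A1, and 7 of them were detected on all 4 arrays. The defining cartilage genes ACAN, COMP, SOX5, SOX6, COL9A2, COL9A3, MATN3, CHAD and PRG4 did not reach it. Of the 8 leukocyte, 3 endothelial and 5 epithelial markers measured, limma called 0 for a change with IL-1 in siHDAC6 cells (2 leukocyte markers were lower, and 1 epithelial marker was higher and 1 lower, at an unadjusted p under 0.05), and PTPRC, CD14 and CD3E did not reach the filter.

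With IL-1, siHDAC6 cells had 670 genes higher (5.99% of those tested) and 478 lower (4.27%) at an adjusted p under 0.05 by limma. The rises were larger than the falls. Over 2-fold there were 298 higher and 35 lower genes, over 4-fold 119 higher and 0 lower, and over 8-fold 55 higher. The median log2 change was 0.92 among the genes that rose, -0.60 among those that fell and -0.06 over all genes, and single genes ran from -1.80 to 7.27. All 1148 called genes moved the same way in replicates 1 and in replicates 2. The median gap between the replicates' log2 changes was 0.15 among them. The calls were made on the same arrays and favour genes with a small spread, so this agreement is no separate check. Over all genes, called or not, the log2 changes of replicates 1 and of replicates 2 correlated at r = 0.787, although replicate numbers did not pair the samples. Of the genes that rose, 131 were below the detection limit on both siHDAC6 arrays and 514 were detected on all 4. Of the genes that fell, 27 were below the limit on both siHDAC6 + IL-1 arrays. Where a gene had several probes these mostly moved together, with a probe of opposite sign in 6 of 165 such genes that rose and in 2 of 100 that fell. Higher genes made up 58.4% of the calls, but 43.9% in the authors' log2 values (837 higher, 1071 lower) and 81.7% after median scaling (432 higher, 97 lower). The number of lower genes also rested on having all 4 arrays: it was 146 without siHDAC6 replicate 1 (with 444 higher), 152 without siHDAC6 replicate 2, 153 without siHDAC6 + IL-1 replicate 1 and 167 without siHDAC6 + IL-1 replicate 2.

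**Figure D1:**
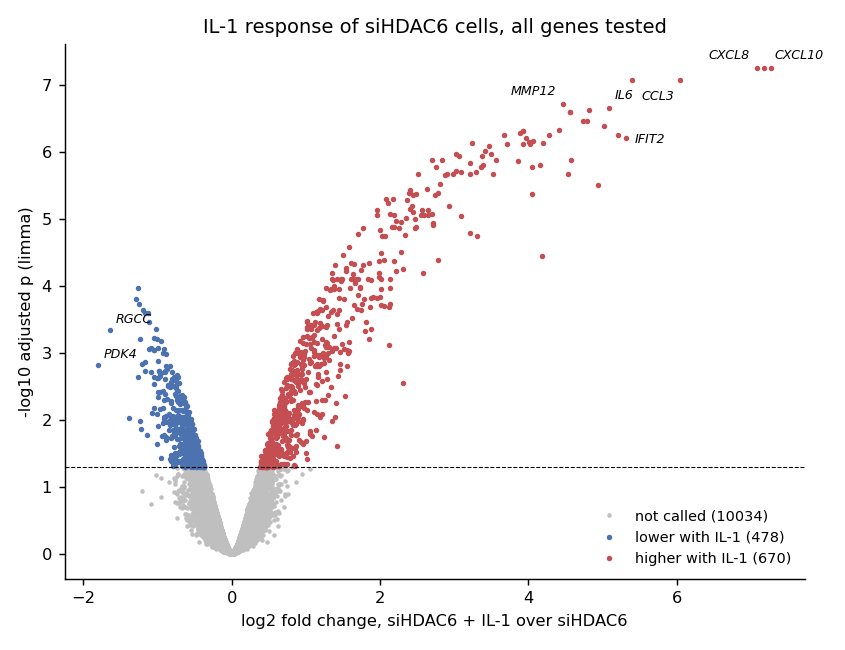
Each point is 1 of the 11182 genes, with the log2 fold change of siHDAC6 + IL-1 over siHDAC6 on the x axis and -log10 of the adjusted p on the y axis, and the dashed line marks an adjusted p of 0.05. The 670 higher genes reach a log2 change of 7.27, whereas the 478 lower genes end at -1.80.

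The genes that rose most encode chemokines, the secreted proteins that attract white blood cells. CXCL10, which attracts T cells, read 4.84 and 5.0 in the siHDAC6 replicates, detected on 1 of them, and 12.28 and 12.10 with IL-1. It rose 155-fold, or 7.27 in log2 units (standard error 0.11, adjusted p = 5.6e-08). The groups were far apart, and the gap between replicates was small beside the change. CCL8, a monocyte attractant, read 5.48 and 5.75 without and 12.87 and 12.73 with IL-1 (7.18, adjusted p = 5.6e-08). CXCL8, or IL-8, the main neutrophil attractant, read 5.54 and 5.31 without and 12.55 and 12.45 with IL-1 (7.08, adjusted p = 5.6e-08). CCL2, another monocyte attractant, went from 5.60 and 5.77 to 10.90 and 10.88 (5.21, adjusted p = 5.4e-07). In all 3 genes both stimulated arrays stood well above both unstimulated ones.

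Several further chemokines were silent without IL-1, in that both siHDAC6 arrays lay below the detection limit. Their rise is therefore a lower bound, the mean with IL-1 against the higher of the limit and the gene's own signal. CCL3 (macrophage inflammatory protein 1-alpha) rose at least 52.2-fold, from 4.69 and 4.62 to 10.83 and 10.57. CCL5 (RANTES), which attracts T cells and monocytes, rose at least 21.9-fold, from 4.77 and 4.53 to 9.50 and 9.39. CCL3L3 rose at least 34.0-fold and CCL3L1 at least 7.76-fold, but these 2 are near-identical copies of CCL3 and their probes may share its signal. Of 15 CC chemokines and CX3CL1 on the array 11 were measured, that is detected on at least 2 of the 8 arrays. A gene silent without IL-1 passes this filter mainly where IL-1 raised it, so counts and medians of measured members lean towards rises. Of the 11, 5 were undetected on both siHDAC6 arrays. In all 9 rose and 0 fell, with a median log2 change of 4.79 (4.45 with undetected genes set at their bound) against -0.06 over all genes. CCL26 and CCL28 showed -0.08 and -0.04. Of 3 CXCR3 ligands on the array, all measured and 2 of them undetected on both siHDAC6 arrays, 2 rose, CXCL10 and CXCL11 (at least 5.89-fold). Of 7 neutrophil-attracting CXC chemokines on the array 4 were measured, 2 of them undetected on both siHDAC6 arrays, and 2 rose, CXCL8 and CXCL5. CXCL5 (at least 1.41-fold, adjusted p = 0.016) lost its call when either siHDAC6 array or siHDAC6 + IL-1 replicate 2 was dropped (adjusted p up to 0.10). The size of these changes depended on how background was treated. In the authors' log2 values, which keep the background, the change of CXCL10 was 5.41, that of CXCL8 5.59 and that of CCL3 3.93, and all 3 kept their call.

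**Figure D2:**
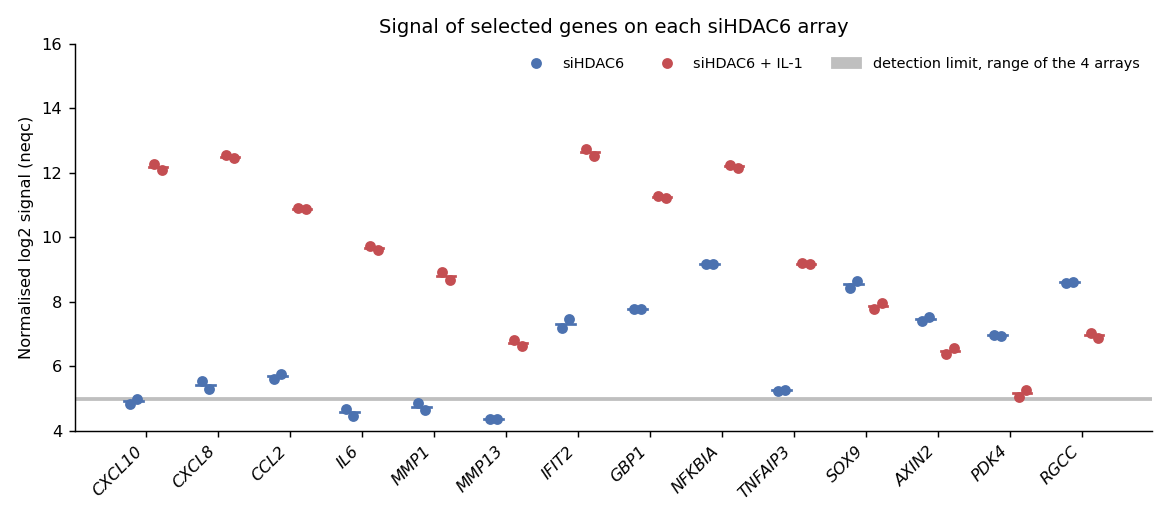
Normalised log2 signal of 14 genes on each of the 2 siHDAC6 arrays (blue) and the 2 siHDAC6 + IL-1 arrays (red), with the group mean as a bar and the range of the detection limit of the 4 arrays in grey. The stimulated arrays lie above the unstimulated ones for the first 10 genes and below them for SOX9, AXIN2, PDK4 and RGCC, with no overlap in any of the 14. Over all 11182 genes, 2392 lay above and 3836 below without overlap.

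A minority of the promoters of responding genes held a binding motif of the factors downstream of IL-1 and interferon. The 250 bases upstream of the transcription start were taken from RefSeq (GRCh38.p14), which matched 9182 of the 11182 genes, 226 of the 298 that rose over 2-fold and 27 of the 35 that fell over 2-fold. They were searched on both strands for the κB consensus of NF-κB, GGGRNNYYCC, where R is A or G and Y is C or T. The other motifs were the AP-1 motif TGANTCA, which reads the same on both strands, and the interferon-stimulated response element (ISRE) GAAANNGAAA, the element of IRF and STAT factors. Sites that depart from these patterns were not counted, so a gene shown without a κB motif may still hold a κB site. The examples below are genes named elsewhere for their rise, chosen because they hold such a match, with 25 bases on each side where the window allows, 5′ to 3′ on the gene's own strand and the matched motifs in capitals. CXCL10 (chr4:76023585-76023743, minus strand) had an ISRE followed by 2 κB motifs, whose first bases lie at -221, -177 and -122 from the start site. IL6 (chr7:22727102-22727161, plus strand) and NFKBIA (chr14:35404796-35404855, minus strand) had 1 κB motif each, VCAM1 (chr1:100719655-100719741, plus strand) a κB motif and an ISRE, and TAP1 (chr6:32853742-32853863, minus strand) 2 overlapping ISREs and a κB motif. CXCL8 (chr4:73740407-73740463, plus strand), MMP10 (chr11:102780664-102780720, minus strand) and TNFAIP6 (chr2:151357438-151357494, plus strand) had an AP-1 motif, and IFIT3 (chr10:89327816-89327909, plus strand) 2 ISREs.
CXCL10: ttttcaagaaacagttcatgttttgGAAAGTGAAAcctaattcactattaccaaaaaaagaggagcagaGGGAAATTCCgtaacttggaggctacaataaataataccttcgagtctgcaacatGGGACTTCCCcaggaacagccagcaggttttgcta
IL6: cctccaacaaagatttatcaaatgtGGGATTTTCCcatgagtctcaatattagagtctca
NFKBIA: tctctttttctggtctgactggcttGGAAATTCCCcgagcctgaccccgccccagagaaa
VCAM1: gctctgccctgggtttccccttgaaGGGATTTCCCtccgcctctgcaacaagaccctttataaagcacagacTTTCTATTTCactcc
TAP1: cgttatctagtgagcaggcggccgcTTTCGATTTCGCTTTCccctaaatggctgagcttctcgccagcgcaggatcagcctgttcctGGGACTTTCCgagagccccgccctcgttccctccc
CXCL8: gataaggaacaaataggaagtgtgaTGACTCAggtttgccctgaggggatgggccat
MMP10: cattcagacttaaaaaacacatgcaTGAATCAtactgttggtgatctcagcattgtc
TNFAIP6: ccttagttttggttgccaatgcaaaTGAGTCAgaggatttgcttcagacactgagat
IFIT3: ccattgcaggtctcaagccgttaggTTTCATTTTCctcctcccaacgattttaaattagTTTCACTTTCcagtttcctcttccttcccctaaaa

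A κB motif was present in 20.8% of the promoters of genes that rose over 2-fold (47 of 226), in 11.3% of those of all genes tested and in 9.57% of all 27305 promoters in the table. The AP-1 motif was present in 8.85%, 4.20% and 6.60%, and the ISRE in 18.6% (42 of 226), 2.43% and 3.07%. Among genes that rose over 4-fold the shares were 29.6% for κB, 11.4% for AP-1 and 31.8% for the ISRE. Promoters of genes that fell over 2-fold held a κB motif in 4 of 27 (14.8%), an AP-1 motif in 2 (7.41%) and an ISRE in 0. For genes that fell over 1.5-fold (205 promoters) the shares were 10.2%, 4.39% and 0.98%. Of the 28 interferon-stimulated antiviral genes that rose over 2-fold and had a promoter, 15 held an ISRE and 6 a κB motif, whereas of 9 NF-κB subunits and inhibitors 4 held a κB motif and 0 an ISRE. These shares describe letters in a window of fixed length and were not tested, and a match is not evidence of binding in these cells.

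**Figure D3:**
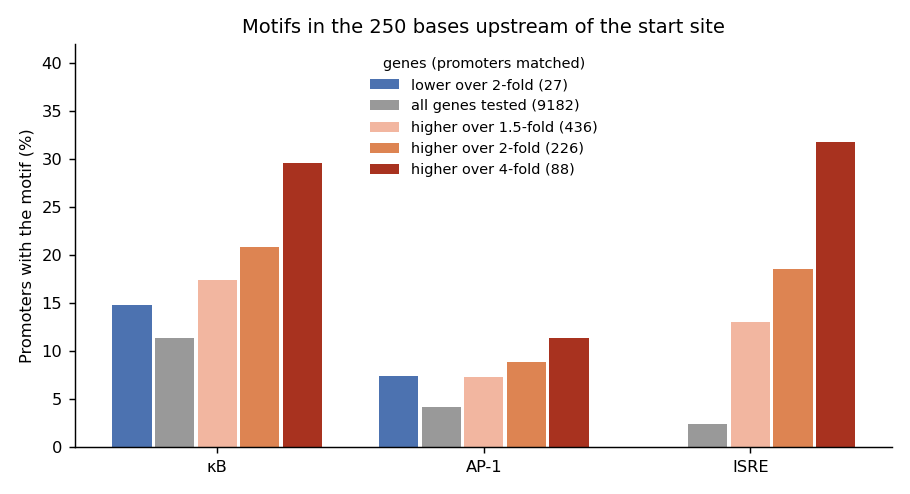
Share of promoters with a κB, AP-1 or ISRE motif in the 250 bases upstream of the start site, for genes that fell over 2-fold (27 promoters), all genes tested (9182) and genes that rose over 1.5-fold (436), 2-fold (226) or 4-fold (88). All 3 shares are larger among genes with larger rises, and the ISRE moves furthest, from 2.43% of all genes to 31.8% of those over 4-fold. The sets of rising genes are nested, so their shares are not separate observations.

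The NF-κB pathway's own genes rose in siHDAC6 cells. NFKBIA, which encodes IκBα and is induced by NF-κB as a negative feedback, read 9.18 and 9.19 without IL-1 and 12.26 and 12.15 with it, a rise of 3.02 (standard error 0.12, adjusted p = 1.9e-06). TNFAIP3, which encodes A20, a ubiquitin-editing inhibitor of the pathway, read 5.24 and 5.26 without and 9.21 and 9.17 with IL-1 (3.93, adjusted p = 7.5e-07). The replicates were nearly equal and the groups well apart. ZC3H12A (Regnase-1), a ribonuclease that destroys cytokine mRNAs, rose by 4.01 and RELB, a subunit of the non-canonical pathway, by 2.71. Of 15 NF-κB subunits and inhibitors measured, 13 rose and 0 fell, with a median of 1.63. Of 18 components of IL-1 receptor signalling 7 rose and 0 fell, with a median of 0.07, among them the kinases MAP3K8 (at least 7.24-fold) and IRAK2 (2.98), the adaptor MYD88 (2.38) and IKBKE (1.88). Of 9 NF-κB survival genes 5 rose, including the mitochondrial superoxide dismutase SOD2 (3.06) and the signalling adaptor TRAF1 (at least 4.12-fold).

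Some cytokine genes rose and others were not called. IL6, a cytokine that drives the liver's acute-phase response, lay below the limit in siHDAC6 cells at 4.69 and 4.46 and read 9.74 and 9.60 with IL-1, at least 25.6-fold higher (adjusted p = 2.2e-07). Its receptor gene IL6R read 5.67 and 5.24 without and 4.64 and 4.83 with IL-1, at least 1.42-fold lower (adjusted p = 0.042), a call lost in 10 of 17 other fits, among them those that left out 1 of siCon replicates 1 and 2, siHDAC6 replicate 1 and siHDAC6 + IL-1 replicates 1 and 2 (adjusted p up to 0.21). IL36G, an epithelial member of the IL-1 family, rose at least 17.4-fold and IL1B, the gene of IL-1beta, at least 8.03-fold, from 4.37 and 4.50 to 8.13 and 7.86. Both genes went from undetected to clearly detected on both arrays. The genes of the natural antagonists of these cytokines rose as well, IL1RN at least 2.19-fold (4.64 and 4.65 to 6.03 and 6.21) and IL36RN at least 2.06-fold. IL18 showed -0.33 and IL33 was below the limit on all 4 arrays. Of 10 IL-1 family genes on the array 8 were measured, 6 of them undetected on both siHDAC6 arrays, and 4 rose and 0 fell. Of 26 other interleukins and TNF family genes on the array 19 were measured, 8 of them undetected on both siHDAC6 arrays. Of the measured genes 9 rose and 0 fell, led by TNFSF13B, the B-cell survival factor BAFF (5.11 and 5.10 to 9.04 and 9.02, a rise of 3.93). LTB, the gene of lymphotoxin-beta, rose at least 9.68-fold, and TNFSF10, which encodes the death ligand TRAIL, at least 6.08-fold. The adhesion molecule VCAM1, which holds white blood cells, was silent without IL-1 and rose at least 4.37-fold. With CD82, CD83 and CD44 (1.11, 1.08 and 0.85) it was among 7 that rose of the 12 adhesion and surface genes measured, of 20 on the array.

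Most of the matrix metalloproteinases measured, enzymes that cut collagen and other matrix proteins, rose. MMP1, the interstitial collagenase, was below the limit at 4.87 and 4.64 and read 8.93 and 8.67 with IL-1, at least 14-fold higher (adjusted p = 1.6e-06). MMP3 (stromelysin 1), already detected at 7.27 and 7.16, rose to 11.14 and 11.15, a change of 3.93 (standard error 0.11, adjusted p = 4.8e-07). MMP13, the collagenase with a preference for type II collagen, went from 4.35 and 4.36, below the limit, to 6.81 and 6.63, at least 3.32-fold higher (adjusted p = 5.1e-06). MMP13 thus left the background on both stimulated arrays, though in the authors' log2 values its change was 0.82. MMP12, macrophage elastase, rose at least 16-fold and MMP10, stromelysin 2, by 2.70. Of 17 matrix metalloproteinases on the array 11 were measured, 3 of them undetected on both siHDAC6 arrays. Of the measured genes 7 rose and 0 fell with a median of 2.13 (1.73 with undetected genes set at their bound). The gelatinase MMP2 and the membrane-bound MMP14, MMP15 and MMP16 lay between -0.23 and 0.29. Of 12 ADAMTS proteases and TIMP inhibitors measured 1 rose, against 5.99% of all genes, with a median of -0.06. It was ADAMTS9 (2.01, from 5.25 and 4.92 to 7.04 and 7.15). Of 8 genes of hyaluronan handling 2 rose and 0 fell (median 0.30). TNFAIP6, which encodes the hyaluronan-binding TSG-6, rose at least 22.4-fold and CEMIP, needed for hyaluronan breakdown, by 2.26 (8.53 and 8.49 to 10.72 and 10.82). Of 22 other collagens and matrix proteins 2 rose and 0 fell, against 5.99% and 4.27% of all genes. These were the small proteoglycans LUM (0.75) and DCN (0.50). DCN lost its call after median scaling, without the detection filter and with any 1 of the 4 siHDAC6 and siHDAC6 + IL-1 arrays left out.

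Antiviral genes that respond to interferon rose almost as a whole. Of 40 interferon-stimulated antiviral genes measured, 39 rose and 0 fell, with a median of 2.56, and the remaining gene, USP18, was below the limit without IL-1 and did not pass (adjusted p = 0.091). IFIT2, which blocks translation of foreign RNA, read 7.19 and 7.46 without and 12.75 and 12.53 with IL-1, a rise of 5.31 (standard error 0.16, adjusted p = 6.1e-07). MX2, a GTPase that traps viral capsids, read 5.12 and 5.08 without and 10.15 and 10.09 with IL-1 (5.02, adjusted p = 4.0e-07). MX2 lay near the detection limit on both unstimulated arrays, whereas IFIT2 already stood well above it. Both genes were high on both stimulated arrays. RSAD2 (viperin), a radical enzyme that limits virus replication, was silent without IL-1 and rose at least 16.2-fold. All 6 guanylate-binding proteins measured, GTPases of cell-autonomous immunity, rose (median 2.82), GBP4 from 5.40 and 5.14 to 9.51 and 9.59 and GBP1 from 7.79 and 7.79 to 11.30 and 11.23. Of 16 genes of the immunoproteasome and of peptide loading 11 rose and 0 fell (median 1.11), including the peptide transporters TAP1 (2.83) and TAP2 (2.10) and the catalytic subunits PSMB8 (1.66) and PSMB9 (1.64). Among interferon signalling genes 10 of 19 rose and 1 fell, with IRF1 at 2.55 (8.15 and 7.90 to 10.56 and 10.58) and IRF9 at 1.71, and 6 genes of the list rose without siHDAC6 replicate 2 and as many without siHDAC6 + IL-1 replicate 2, while the falling gene lost its call without either siCon array or any 1 of the 4 siHDAC6 and siHDAC6 + IL-1 arrays. IFNB1, the gene of interferon-beta, was below the limit on all 4 arrays with a change of 0.25 (adjusted p = 0.25), and USP18 and IFNB1 are named here after their values were seen.

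Some of the responders were neighbours in the genome. Among the genes measured, 10 stretches of at least 3 adjacent genes were all higher over 2-fold, and these held 40 of the 298 genes (13.4%), a share for which no background was computed. They included MMP7, MMP10, MMP1, MMP3, MMP12 and MMP13 on chromosome 11, GBP3, GBP1, GBP2, GBP4 and GBP5 on chromosome 1, IFIT2, IFIT3, IFIT1 and IFIT5 on chromosome 10, CCL2, CCL7, CCL8 and CCL1 on chromosome 17, and TAP2, PSMB8, TAP1 and PSMB9 on chromosome 6. The others were SAA4, SAA2, SAA1 and HPS5, OAS1, OAS3 and OAS2, IL36RN, IL1RN and PSD4, RND3, RBM43, NMI and TNFAIP6, and LTA, TNF and LTB.

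Genes of the acute phase, of metal handling and of inflammatory metabolism also rose. Of 16 acute-phase genes and C/EBP factors on the array 10 were measured, 5 of them undetected on both siHDAC6 arrays. Of the measured genes 8 rose and 0 fell (median 1.83), with the transcription factor CEBPD at 2.87 (8.55 and 8.50 to 11.31 and 11.48) and the protease inhibitor SERPINA3 at least 3.44-fold higher. SAA1 and SAA2, which encode serum amyloid A, rose by 2.59 and at least 3-fold, but they are near-identical and their probes may not tell them apart. CFB, complement factor B, was silent without IL-1 and rose at least 13.5-fold, from 4.53 and 4.63 to 8.90 and 8.59. In all 6 of 12 complement genes measured, of 14 on the array, rose, and 5 did after median scaling. Fewer also rose without any 1 of the 4 siHDAC6 and siHDAC6 + IL-1 arrays. SLC39A14, an importer of zinc and manganese, went from 7.96 and 7.99 to 10.41 and 10.34 (2.40, adjusted p = 4.0e-06). Of 9 metallothioneins and zinc importers 6 rose (median 0.75), among them MT1G (1.17) and MT1X (1.15), and 4 did after median scaling. Here too fewer rose without any 1 of the same 4 arrays. Of 14 inflammation-linked metabolic enzymes 10 rose and 1 fell (median 1.03), the fall being lost without siHDAC6 replicate 2 and also without siHDAC6 + IL-1 replicate 2. IDO1, which breaks down tryptophan, rose at least 3.39-fold, and GCH1, the first enzyme of tetrahydrobiopterin synthesis, by 1.56. NAMPT, an enzyme of NAD synthesis, showed a wide gap between its unstimulated replicates, 6.46 and 5.40, against 8.37 and 8.11 with IL-1 (2.31, standard error 0.31, adjusted p = 0.0028). PTGS2, which encodes the prostaglandin enzyme COX-2, rose little, from 4.79 and 4.85 below the limit to 5.37 and 5.27 (at least 1.26-fold, adjusted p = 0.032), a call lost in 11 of 18 other fits, including those without any 1 of the 4 siHDAC6 and siHDAC6 + IL-1 arrays.

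Early-response factors were divided, and a few growth factor genes rose. Over all genes 5.99% were higher and 4.27% lower. Of 17 AP-1 and immediate early genes 4 rose and 2 fell (median 0.10), and 2 rose without any 1 of the 4 siHDAC6 and siHDAC6 + IL-1 arrays. ATF3 rose by 1.66 (6.57 and 6.44 to 8.17 and 8.16) and JUNB by 1.25, whereas EGR1, a zinc-finger factor of the first hour after stimulation, fell by 0.76 (7.62 and 7.43 to 6.79 and 6.75, adjusted p = 0.0031), though not after median scaling (adjusted p = 0.080). Of 15 MAPK phosphatases and ERK feedback genes 5 rose and 2 fell, with DUSP6, an ERK phosphatase, at 1.13, but 1 or 2 rose and 0 or 1 fell without any 1 of the same 4 arrays, and 3 rose without siCon replicate 1 or 2. Of 17 EGF, FGF and VEGF family growth factors 4 rose and 0 fell (median 0.06). After median scaling 2 rose, and with the replicate block 3 rose and 1 fell. Fewer also rose without any 1 of the same 4 arrays. VEGFC, a growth factor for lymphatic vessels, rose by 1.16 (8.25 and 8.28 to 9.38 and 9.47) and HBEGF, a ligand of the EGF receptor, by 0.90. Of 22 hypoxia targets and glycolysis genes 5 rose and 0 fell (median 0.12), with ADM, a vasodilator peptide, at 1.13.

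**Figure D4:**
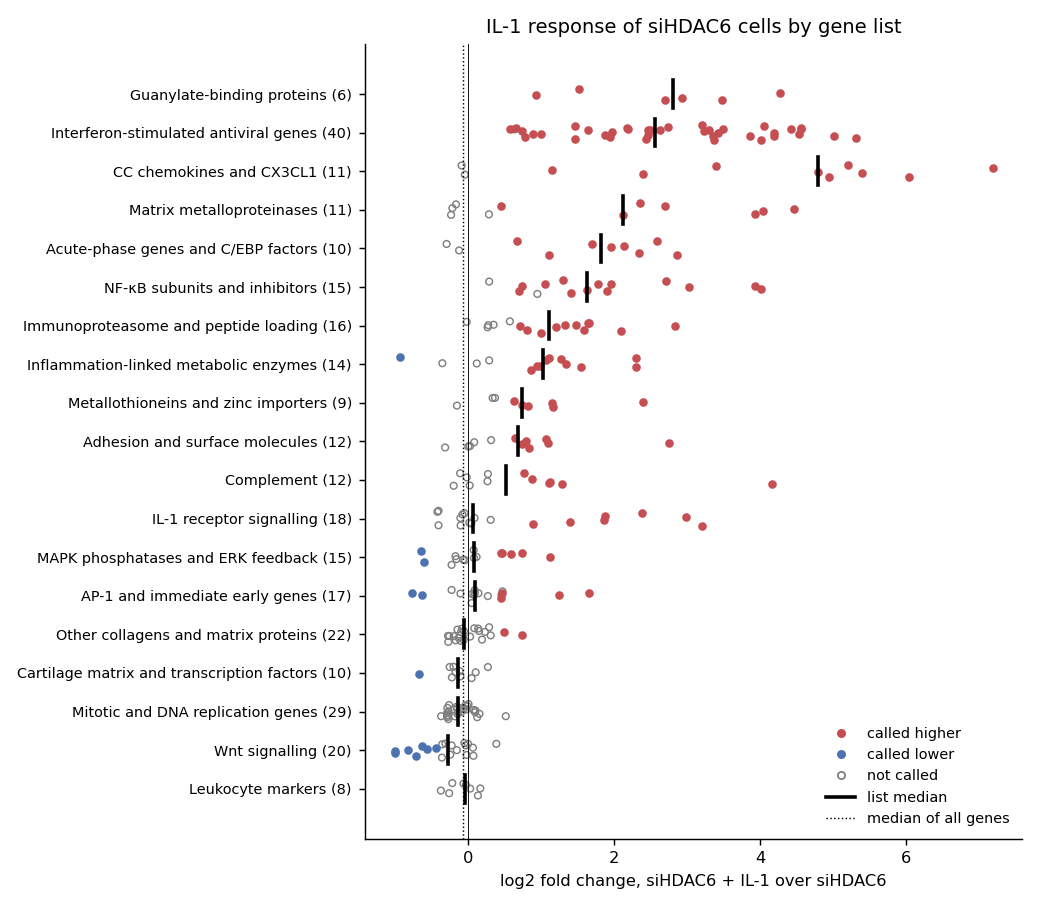
Log2 fold change of siHDAC6 + IL-1 over siHDAC6 for the measured members of 19 gene lists, with filled points for called genes, open points for the others, a bar at each list's median and a dotted line at the median of all genes (-0.06). Numbers in brackets are members measured. The guanylate-binding proteins and the antiviral genes lie almost wholly to the right, the Wnt genes to the left, and the leukocyte markers around 0.

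The genes that fell most were smaller in change and mixed in function. PDK4, a kinase that shuts off pyruvate dehydrogenase, read 6.97 and 6.96 without IL-1 and 5.05 and 5.28 with it, a fall by 1.80 (standard error 0.22, adjusted p = 0.0015), or 3.48-fold. RGCC, a regulator of the cell cycle, read 8.57 and 8.63 without and 7.04 and 6.88 with IL-1 and fell by 1.64 (adjusted p = 4.5e-04). AK5, an adenylate kinase, fell by 1.28 (6.51 and 6.63 to 5.35 and 5.21, adjusted p = 1.6e-04). In these 3 genes the stimulated arrays lay below the unstimulated ones without overlap, as in 3836 of all 11182 genes. They were picked among the largest called falls, so the lack of overlap is no separate check. EPHB4, an ephrin receptor, fell by 1.26, HSD17B2, which inactivates oestradiol and testosterone, by 1.26, DLX5, a homeobox factor of bone and cartilage, by 1.20, and RGS4, which dampens G-protein signals, by 1.17. All of these kept their call when any 1 array was left out, whereas FAXC (-1.38) lost it without siHDAC6 replicate 2 (adjusted p = 0.067). RANBP3L (-1.22) lost its call without either siHDAC6 array, and MAP7D2 (-1.23) without either siHDAC6 array or without siHDAC6 + IL-1 replicate 1. The falls also shrank with the background kept, PDK4 to -0.70 and RGCC to -1.19 in the authors' log2 values.

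Of the 45 lists, Wnt signalling had the largest share of falling members, 7 of 20 lower and 0 higher with a median of -0.27, against 4.27% of all genes lower. AXIN2, a standard target gene of the pathway and its inhibitor, read 7.40 and 7.54 without and 6.38 and 6.56 with IL-1, a fall by 1.00 (standard error 0.14, adjusted p = 0.0038). The ligand WNT5B fell from 9.0 and 9.14 to 7.95 and 8.19 (-1.0, adjusted p = 0.012) and the receptor FZD2 from 9.96 and 9.99 to 9.26 and 9.06 (-0.81, adjusted p = 0.0027). The groups of all 3 were apart, as were those of 3836 of all genes in the same direction. The receptors FZD7 (-0.56) and FZD4 (-0.43) and the transcription factors TCF7L2 (-0.71) and LEF1 (-0.63) were called as well, while the pathway's effector CTNNB1, or beta-catenin, showed 0.08. After median scaling 2 of these genes kept their call, and WNT5B lost it when either siHDAC6 array or siHDAC6 + IL-1 replicate 1 was dropped (adjusted p up to 0.091). The list kept 2 called genes without siHDAC6 replicate 1, 3 without siHDAC6 replicate 2, 3 without siHDAC6 + IL-1 replicate 1 and 4 without siHDAC6 + IL-1 replicate 2, and TCF7L2 lost its call in each of these fits. SOX9, the master transcription factor of cartilage, fell by 0.67 (8.44 and 8.65 to 7.79 and 7.96, adjusted p = 0.011), not passing after median scaling or when siHDAC6 replicate 2 or else siHDAC6 + IL-1 replicate 1 was dropped (adjusted p up to 0.20). It was the only called gene of 10 cartilage matrix and transcription factor genes, whose median was -0.14, and COL2A1 showed -0.17. In TGF-beta and BMP signalling 4 of 20 genes rose and 1 fell, against 5.99% and 4.27% of all genes. After median scaling 2 rose. Fewer also rose without any 1 of the 4 siHDAC6 and siHDAC6 + IL-1 arrays, and the number that fell moved without siCon replicate 1 or 2. Among the called genes BMP4, a cartilage and bone morphogen, was lower by 0.88 (8.66 and 8.76 to 7.72 and 7.93, adjusted p = 0.0047). SMAD3, a mediator of TGF-beta, was higher by 0.84.

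Other programmes gave few or no calls. With 5.99% of all genes higher and 4.27% lower, lists of this size would hold few calls in any case. Of 29 mitotic and DNA replication genes limma called 0 (median -0.13, 5 lower at an unadjusted p under 0.05, and 4 lower in the authors' log2 values), of 15 in cholesterol and fatty acid synthesis 0 (3 higher and 1 lower unadjusted), and of 15 histone deacetylases 0 (2 lower unadjusted). Of 18 tubulins and microtubule genes 1 fell, TUBA4A (-0.62), of 14 NRF2 targets and peroxiredoxins 1 rose, PRDX6 (0.66), and of 13 p53 targets 2 fell, SESN1 (-0.74) and ZMAT3 (-0.43). The calls for TUBA4A and ZMAT3 were lost without any 1 of the 4 arrays, that for SESN1 without siHDAC6 replicate 1 or siHDAC6 + IL-1 replicate 2, and all 4 genes missed the threshold after median scaling (adjusted p up to 0.27, 0.81, 0.12 and 0.083 for TUBA4A, ZMAT3, SESN1 and PRDX6 over all other fits).

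Set beside siCon cells, whose response uses no array in common with that of siHDAC6 cells, most of the rising genes were shared. IL-1 raised 1048 genes (9.37%) and lowered 1252 (11.2%) in siCon cells. These counts moved with the fit, with 552 higher after median scaling, and with 529 lower without siCon replicate 1, 544 without siCon replicate 2 and 624 without siCon + IL-1 replicate 2, so the shares of the siCon lists given next hold for the fit of all 8 arrays. The shared rising genes numbered 608, or 90.7% of the siHDAC6 list and 58.0% of the siCon list, and the shared falling genes 342, or 71.5% and 27.3%. Genes called in opposite directions numbered 2 and 1. Across the 11182 genes the log2 changes of the 2 responses correlated at r = 0.866 (Spearman's rho = 0.590), a description over genes that are not independent replicates. Of the 670 rising genes, 492 had a smaller change in siHDAC6 than in siCon cells, and the median difference was -0.23 among them all, against 0.02 over all genes. Since these genes were picked on the siHDAC6 arrays, whose scatter favours a large change there, this median is a description without a test.

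The difference between the responses was itself tested and passed for few genes, with 12 below 0 (0.107% of genes) and 1 above 0 (0.00894%), and the 13 genes are given with their values in the closing section. Of these 13 genes 11 rose in siHDAC6 cells too, among them MMP13, IL6 and CXCL10, so a called difference does not mean that the response was lost. The number of such genes was 0 in each direction without siCon replicate 2 and fell to 2 or 3 below 0, and 0 above it, when siCon replicate 1, siCon + IL-1 replicate 2 or any of the 4 siHDAC6 and siHDAC6 + IL-1 arrays was dropped. For NFKBIA, detected on all 8 arrays, the response was 3.02 in siHDAC6 against 3.01 in siCon cells, with a standard error of the difference of 0.17. MMP1 had a difference of -1.11 that did not pass by limma (adjusted p = 0.15) but passed in 4 of 17 other fits, among them the authors' log2 values. That of CXCL8, -0.55 (adjusted p = 0.37), passed only in the authors' log2 values. CLDN1, a tight-junction protein named after its values were seen, had its fitted difference on the other side. It was below the limit without IL-1 in siHDAC6 cells (4.52 and 4.61), read 6.89 and 6.90 with it, and rose at least 3.75-fold, against at least 1.49-fold in siCon cells, where it was also below the limit without IL-1. The difference did not pass by limma (adjusted p = 0.054). With both baselines below the limit, the 2 bounds do not show which response was larger.

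**Figure D5:**
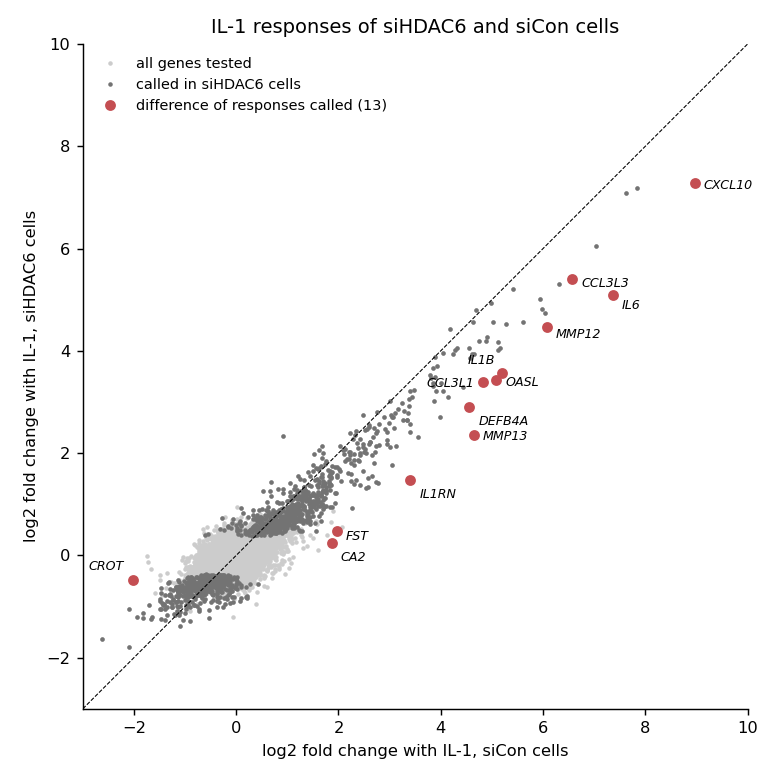
Log2 fold change with IL-1 in siCon cells (x axis) against that in siHDAC6 cells (y axis) for the 11182 genes, with genes called in siHDAC6 cells in dark grey and the 13 genes with a called difference in red; the dashed line marks equal responses. Among the red genes 12 lie below the line and CROT lies above it, while MMP13, IL6 and CXCL10 stay well above 0 in siHDAC6 cells.

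Genes called in siHDAC6 cells alone, 62 higher and 136 lower, gave no called difference, and 52 and 119 of them had the same sign in siCon cells. The 10 with the smallest adjusted p of the difference ran from 0.060 to 0.21. Of these, PLEKHS1 read 4.43 and 4.45, below the limit, without IL-1 and 5.32 and 5.39 with it (at least 1.29-fold higher, adjusted p = 0.0011), against a change of 0.10 in siCon cells. TRPV2, a cation channel, read 5.88 and 5.88 without and 4.77 and 4.99 with IL-1 (-1.0, adjusted p = 0.0013), against -0.26. MB21D2 read 6.49 and 6.56 without and 5.91 and 6.00 with IL-1 (-0.57, adjusted p = 0.010), against 0.43, a call lost after median scaling and when siHDAC6 replicate 2 or else siHDAC6 + IL-1 replicate 1 was dropped (adjusted p up to 0.35). Both PLEKHS1 and TRPV2 had groups that did not overlap, as had 2392 of all genes upwards and 3836 downwards. The difference from siCon cells did not pass for either (adjusted p = 0.12 and 0.21).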

How the data were processed

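The authors deposited, for each of 48803 probes and 8 arrays, a summarised, non-normalised signal intensity with a detection p-value, as well as log2 values made with lumi (version not given in the sources used here) by variance-stabilising transformation and robust spline normalisation, whose median was 6.40 to 6.41 on every array and which ranked probes exactly as the signals did. The study names the HT-12 V4 array, whereas the probe table given here is that of an earlier Illumina human array. It lists 1 gene symbol for 27578 probes, several for 13 and none for 21212.

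Signals were background-corrected, quantile-normalised and log2-transformed with neqc of limma 3.58.1 (offset 16, statmod 1.5.0, R 4.3.3). The 18045 probes detected (p under 0.05) on 2 or more arrays were kept, and the 14483 of them with 1 symbol were averaged per symbol to 11182 genes, 2690 of them with several probes. All 8 arrays entered 1 fit of group means by lmFit and eBayes (4 residual and 3.79 prior degrees of freedom), and p-values were adjusted by Benjamini-Hochberg over all genes, with calls at an adjusted p under 0.05. An array's detection limit (4.90 to 5.17) was the lowest log2 value among its detected probes. Replicate numbers did not pair the samples (correlation of same-numbered deviations -0.04 to 0.05). The number of arrays limits the precision.

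Genes named were the 15 largest rises and 15 largest falls with the same sign in both replicates, up to 4 called members of each of 45 lists, every gene with a called difference of the responses, MMP1, MMP13, IL6, CXCL8, NFKBIA and HDAC6, and, of genes called in siHDAC6 cells alone, the 5 with the smallest adjusted p of the difference in each direction. Members of a list named beyond these serve to complete its account. The lists and rules were chosen with earlier results of these data known. The workflow was tested on simulated data. Counts of calls and the named genes were recomputed with the authors' log2 values, quantile normalisation without background correction, median scaling, a neqc offset of 50, dropping the detection filter or tightening it to p under 0.01 in both replicates of a group, taking the brightest probe, a trended and robust eBayes, only the 4 arrays compared (not for the difference of responses), a replicate block and dropping each array in turn. The motif shares were recomputed at fold thresholds of 1.5 and 4 only, and the stretches of adjacent genes under no alternative.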

Additional observations from a re-analysis of the deposited data

Results flagged for a closer look

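The change with IL-1 was tested for a difference between siHDAC6 and siCon cells, and 13 genes passed, each with its log2 difference (siHDAC6 minus siCon) given here. Of the matrix metalloproteinases MMP13 had -2.28 and MMP12 -1.61. Of cytokine genes IL6 had -2.27, IL1B -1.64 and the antagonist gene IL1RN -1.93. Among chemokines the values were -1.69 for CXCL10, -1.18 for CCL3L3 and -1.43 for CCL3L1, the last 2 being near-identical copies of CCL3. DEFB4A, an antimicrobial defensin, had -1.66 and so had OASL, an antiviral gene (-1.66). CA2 had -1.63 and FST -1.49. For CROT, a peroxisomal acyltransferase, the difference was 1.53, with a change of -0.49 in siHDAC6 and of -2.02 in siCon cells. CA2, carbonic anhydrase 2, changed by 0.24 in siHDAC6 cells (adjusted p = 0.26), the 1 gene of the 13 without a called response there. FST, which encodes follistatin, read 7.76 and 7.95 without and 8.36 and 8.30 with IL-1 in siHDAC6 cells (0.47, adjusted p = 0.045). The calls of FST and CROT within siHDAC6 cells were lost in 10 of 18 other fits each, including those that left out any 1 of the 4 siHDAC6 and siHDAC6 + IL-1 arrays, and also either siCon array for FST and either siCon + IL-1 array for CROT (adjusted p up to 0.39 and 0.56). Of the 13 genes 9 were below the detection limit on both siHDAC6 arrays, so their differences are fitted values that rest on signal not above background. Leaving out siCon replicate 2 ended all 13 calls, and the block for the replicate number ended those of CA2, CCL3L1, CCL3L3, CROT, FST, IL1B and OASL.

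Probes without a gene symbol in the probe table also responded, with 50 of 3562 such probes called higher over 2-fold in siHDAC6 cells. They were part of 63 higher and 18 lower, and enter no comparison above.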

How the results depend on the processing

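Of the 151 named genes called in siHDAC6 cells, 102 kept their call in every alternative and 49 lost it in at least 1, 45 of them when an array was left out, and 0 changed direction. Genes higher numbered 432 after median scaling and 444 to 676 when 1 array was left out. Genes lower numbered 1071 in the authors' log2 values, 748 with an offset of 50, 97 after median scaling, 838 with trend and robust, and 146 to 489 when 1 array was left out. With the replicate block, siHDAC6 cells had 615 genes higher and 349 lower. Differences below 0 and above 0 numbered 119 and 45 in the authors' log2 values, 70 and 9 by quantile normalisation of uncorrected signals, 71 and 13 at an offset of 50, 34 and 7 with the stricter detection filter, 59 and 15 with trend and robust, 6 and 0 with the replicate block, and 0 to 8 and 0 to 1 when 1 array was left out. Those above 0 numbered 5 after median scaling and 2 without a detection filter. The difference for NFKBIA, 0.02, ran from -0.088 to 0.13 when 1 array was left out, and it was -0.088 when siCon replicate 2 was dropped, -0.06 when siCon + IL-1 replicate 1 was, and -0.03 when siHDAC6 + IL-1 replicate 1 was. In siCon cells 552 genes were higher after median scaling, and 1917 were lower in the authors' log2 values, 712 with only the 4 siCon arrays and 529 to 1044 when 1 array was left out. The share of promoters with a κB motif was 29.6% over 4-fold, and that with an ISRE 13.1% over 1.5-fold and 31.8% over 4-fold. The cause of these shifts was not tested. With 2 arrays per group, changes near the detection limit have only a bound, and fold sizes there depend on the background treatment. No block for the slide was possible, since the sources used here name no slide.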
